A study of Mus musculus with 23 samples.

Results

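Kat6b and 8 related genes encode the nuclear histone acetyltransferases followed here: Kat6a, Kat6b, Kat7, Kat8 and Kat5 of the MYST family, Ep300 and Crebbp of the p300/CBP pair, and Kat2a and Kat2b of the GNAT family. They were 9 of 55413 genes annotated on the mouse autosomes and sex chromosomes. The set was chosen by site count and family: Kat6b had more crosslink sites in the WT ESC list than any other gene (1817, followed by Gm20388 with 1334 and Huwe1 with 1161), and its relatives were added by function. The Kat6b count in that list, and every ratio that uses it, is therefore a description and not a test.

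The measurements were CTCF-RNA crosslink sites mapped by iCLIP2, in which UV light bonds a protein to RNA it touches, the protein is immunoprecipitated, and reverse transcription stops at the bonded nucleotide. All samples were E14 mouse embryonic stem cells (ESC), or neural progenitor cells (NPC) obtained from them by 2 days of differentiation, whose own CTCF carries an AID2 degron. They were given 1 uM 5-Ph-IAA, which depletes the endogenous protein, together with 1 ug/mL doxycycline for 24 hours, which induces a Flag-Halo-tagged CTCF rescue that is either WT or a mutant of zinc finger 1 (ΔZF1). Anti-Flag beads purified the rescue protein from nuclear lysates of cells irradiated with 400 mJ/cm2 at 254 nm, or of cells that received no UV (noXL). The 23 libraries made 6 groups, 3 per cell type, with 3 libraries in NPC WT and 4 in every other group. Sites of the noXL lists were called in the same way but are background positions, since no UV was given. Both noXL groups carried the WT rescue, so no unirradiated ΔZF1 control stands beside the mutant. Both rescue lines derive from 1 degron clone, which also carries an unused mCherry reporter at Hb9.

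Libraries of a group were pooled before the deposited sites were called, which leaves 1 list per group, no spread between replicates and no p-value for any comparison. Intervals in the text are 95% counting intervals (Wilson, or from the counts for ratios of ratios) and cover counting error alone. A site counted for a gene when it lay inside the GENCODE gene body on the coding strand. The lists differed in size, with 429119, 217770 and 150821 genic sites in the WT, ΔZF1 and noXL lists of ESC and 230147, 153211 and 102002 in those of NPC. Ratios between lists were therefore scaled to these totals on the log2 scale with a pseudocount of 1, were computed for genes with at least 20 sites summed over both lists, and were called higher at 1 or more and lower at -1 or less. Exon ratios were scaled in the same way to the exon sites of each list, and intron ratios to its intron sites. The number of reads behind each list is unknown here, and a site list carries no RNA level. Fewer sites on a gene, less of its RNA and fewer cells that make it cannot be told apart. Marker genes separated the cell types, although few neural genes carried sites. Esrrb, an ESC transcription factor, had 460, 263 and 158 sites in the ESC WT, ΔZF1 and noXL lists and 0 in every NPC list. Zfp42 and Nanog, further ESC markers, held 10 to 11 and 7 to 14 sites in the NPC lists. Nes, a neural progenitor filament gene, had 28, 32 and 14 sites in NPC WT, ΔZF1 and noXL against 2, 0 and 0 in the ESC lists. Sox1, Pax6, Hes5 and Zic1 had 0 in both NPC lists made with UV, and Sox1 and Pax6 had 2 and 1 in NPC noXL. A count of 0 does not show whether the RNA was present.

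Histone acetyltransferases transfer acetyl groups from acetyl-CoA to lysines of histone tails, a mark of open and transcribed chromatin. The MYST enzymes work inside multisubunit complexes with BRPF, JADE, MSL, NSL or TIP60 partners that steer them to histone H3 or H4, p300 and CBP are large coactivators that acetylate H3 at enhancers and promoters, and GCN5 (Kat2a) and PCAF (Kat2b) are the alternative catalytic subunits of SAGA and ATAC. KAT6A (MOZ) and KAT6B (MORF) are paralogs acting on H3, and human KAT6B is known from developmental disorders with intellectual disability.

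High scoring Kat6b sites are shown first, because the top site of each ESC list lay on a G, with or without UV, whereas that of each NPC list made with UV lay on a uridine. The top site of NPC noXL, a G in the 5′ UTR at chr14:21501047-21501067, scored 82.1. That score was higher than that of any Kat6b site shown, and its sequence is not printed. Each sequence is the RNA-sense 21-nt window of the mm10 (GRCm38) genome read from RefSeq, 5′ to 3′. The called nucleotide is in capitals, and scores are the site caller's own.
Kat6b intron site, highest score in ESC WT, chr14:21543079-21543099, plus strand: ugagggugggGgggagaggga
Kat6b coding exon site, next highest in ESC WT, chr14:21668738-21668758, plus strand: gaggaggaggGagaacgagaa
Kat6b coding exon site, highest in ESC noXL, chr14:21662385-21662405, plus strand: ggaggaggagGaagaggagga
Kat6b coding exon site, highest at a uridine in ESC WT, chr14:21517310-21517330, plus strand: cauccagccuUucagcagagg
Kat6b 5′ UTR site, highest in NPC ΔZF1, chr14:21516715-21516735, plus strand: aguccucucuUuaaggauggu
Kat6b 3′ UTR site, highest in NPC WT, chr14:21671931-21671951, plus strand: uuuuagccuuUguaccuggac
The intronic G site scored 46.7 with WT and 61.8 with ΔZF1 in ESC, and it was also called there without UV at 12.3. The next highest site scored 40.2 and 35.3 and was not called without UV. The purine-rich exon site at chr14:21662385-21662405 scored 29.2, 13.2 and 35.1 in the WT, ΔZF1 and noXL lists of ESC, so that its highest score came from cells without UV. The uridine site at chr14:21517310-21517330 scored 25.5 and was called in ESC WT and in no other list. The 5′ UTR uridine site scored 11.02 in ESC WT and 15.4 in NPC ΔZF1. Of 3205 Kat6b positions called in any list, 76 were called at the same nucleotide in both ESC lists made with UV, 12 of them also in ESC noXL, and none was common to the 4 UV lists.

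Kat6b (ENSMUSG00000021767.18, chr14:21481434-21672478, plus strand) spans 191 kb, of which 16.8 kb is exonic. It held 1817, 918 and 552 sites in the WT, ΔZF1 and noXL lists of ESC, and 9, 10 and 15 in the same lists of NPC. The 3 ESC lists were all high and the 3 NPC lists all near the floor. Kat6b also ranked 1 by site count in the ESC ΔZF1 and ESC noXL lists. In the NPC lists it ranked 5954, 4097 and 1952 in the order WT, ΔZF1 and noXL. The 9 acetyltransferase genes together had 2514 sites in ESC WT, so that Kat6b alone made up 72.3% of them. In the NPC WT list its part was 2.31% of 390.

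**Figure D1:**
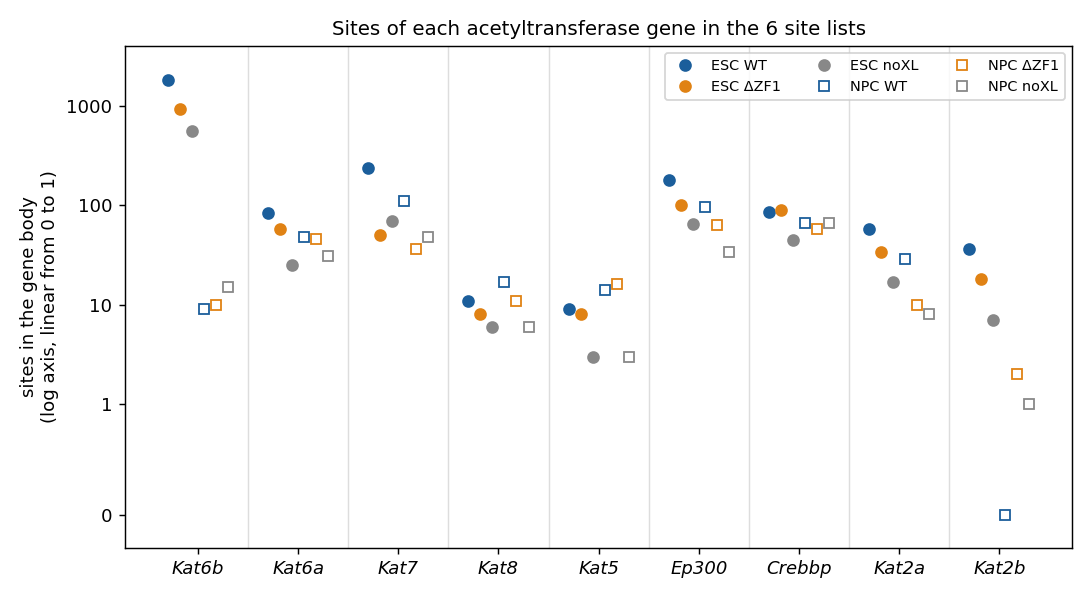
Number of called sites in the gene body (log axis, linear between 0 and 1) of each of the 9 acetyltransferase genes, with 1 point per site list, filled circles for ESC and open squares for NPC. Kat6b lies at 552 to 1817 sites in the ESC lists and at 9 to 15 in the NPC lists.

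The ESC sites of Kat6b ran along the whole transcript. All 39 bins of 5 kb held at least 1 site in each of the 3 ESC lists, with 21 to 71 sites per full bin for WT (median 49), 4 to 39 for ΔZF1 (median 26) and 2 to 29 for noXL (median 14). The plot of sites along Kat6b shows a trough from 110 to 125 kb in all 3 ESC lists, where the bins held 21 to 28, 5 to 9 and 2 to 6 sites for WT, ΔZF1 and noXL. The median gap between neighbouring sites was 68.5, 126 and 176 nt in the ESC WT, ΔZF1 and noXL lists. Sites stopped at the gene ends: the 10 kb upstream held 3 sites and the 10 kb downstream 4 in ESC WT, and the antisense strand held 0 in every list. In NPC, 3 bins held sites in WT, 3 in ΔZF1 and 7 in noXL.

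**Figure D2:**
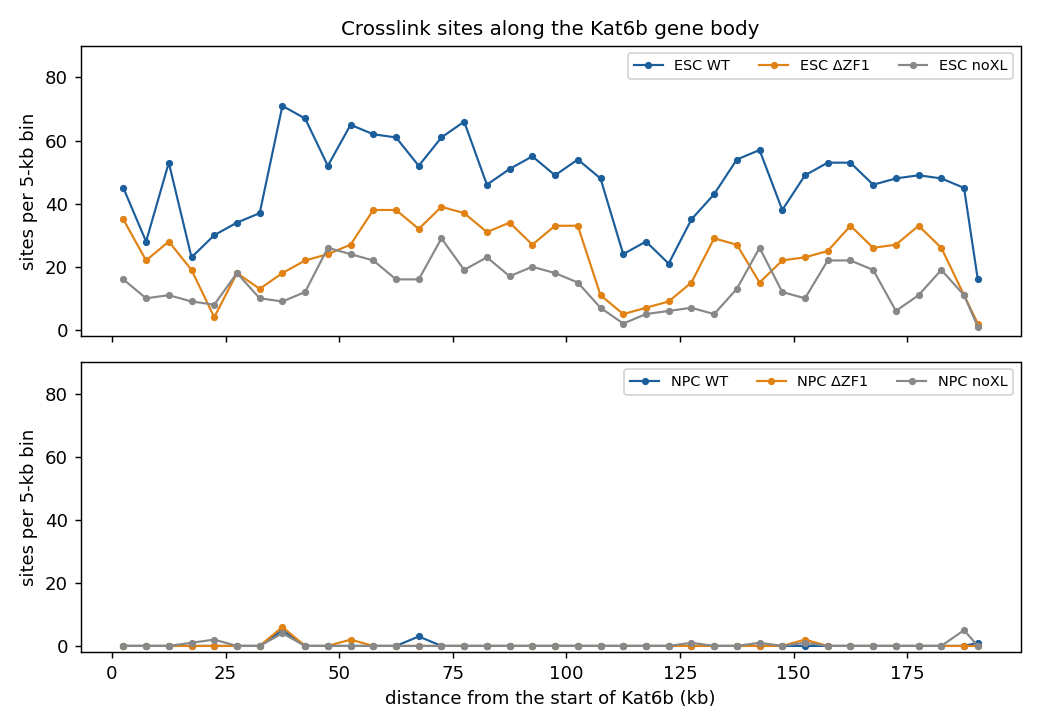
Called sites in 5-kb bins (vertical axis) against the distance from the start of Kat6b in kb (horizontal axis), ESC lists above and NPC lists below on the same scale. ESC WT reaches 71 sites in a bin, whereas no NPC bin holds more than 6.

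Most Kat6b sites in ESC were intronic. Introns held 1576, 858 and 490 of its sites in the ESC WT, ΔZF1 and noXL lists, against 3, 2 and 3 in NPC WT, ΔZF1 and noXL. Per kb of intron, Kat6b carried 9.05, 4.92 and 2.81 sites in the ESC WT, ΔZF1 and noXL lists. Among 2640 genes with at least 100 kb of intron it ranked 1 in each, where the median gene with any intron site had 0.0305, 0.0187 and 0.0244 sites per kb. The ESC WT rank rests on the count by which Kat6b was chosen and is a description. Huwe1, whose body spans 135 kb, held 1161 sites in ESC WT, against 1817 over 191 kb for Kat6b. In NPC WT, ΔZF1 and noXL it ranked 422, 674 and 553. Over the whole gene body, among genes of any length with at least 5 sites, the Kat6b density lay at the 92.7, 94.2 and 94.7 percentile in the ESC lists, so that it was not the densest gene. In the transcript with the longest coding sequence, 17 exons and 16 introns all held at least 1 ESC WT site. Intron 2, which spans 92255 nt, held 932, 471 and 288 sites in the ESC lists, and 3, 2 and 0 in the NPC lists. Across the 13 introns of 1 kb or more, the ESC WT density ran from 3.35 to 13.9 sites per kb. The sites were thus spread over the introns, and 17 of the 1576 lay within 100 nt of an exon.

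In ESC, Kat6b exons differed from its introns in the comparison of ΔZF1 with WT. Exons held 241, 60 and 62 sites in the ESC WT, ΔZF1 and noXL lists, against 6, 8 and 12 in the NPC lists. Scaled to exon sites, the log2 ratio of ESC ΔZF1 to noXL was -0.76 (-1.27 to -0.26) in exons. Over the gene body the scaled log2 ratio of ESC ΔZF1 to WT was -0.01 (interval -0.12 to 0.11), near the median of 0.04 over 6518 genes. In exons it was -1.04 (-1.47 to -0.65), and 5.59% of 6172 genes had a lower exon ratio. In introns it was 0.17 (0.05 to 0.29), and -0.053 among sites of at least the median score, where the exon value was -1.29. The log2 ratio of intron to exon sites was higher in ESC ΔZF1 than in ESC WT by 1.13 (0.70 to 1.55), whereas over all genic sites it differed by -0.10. NPC did not show this, although its counts were low: exons held 6 sites with WT and 8 with ΔZF1, introns 3 and 2, and the exon ratio was lower in ESC than in NPC, with a difference of -2.34 (-3.92 to -0.76). Of the exon sites in ESC WT, 117 lay outside coding and UTR exons, in exons of noncoding Kat6b transcripts. The split held without them, since the exons of the longest coding transcript held 124, 29 and 30 sites in the ESC WT, ΔZF1 and noXL lists. Exon 17, the last and longest at 4148 nt, held 55, 10 and 12 sites in ESC WT, ΔZF1 and noXL. Exon 2, of 873 nt, held 16, 1 and 0. In NPC WT, ΔZF1 and noXL it held 5, 6 and 4 of the 9, 10 and 15 sites of the gene.

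**Figure D3:**
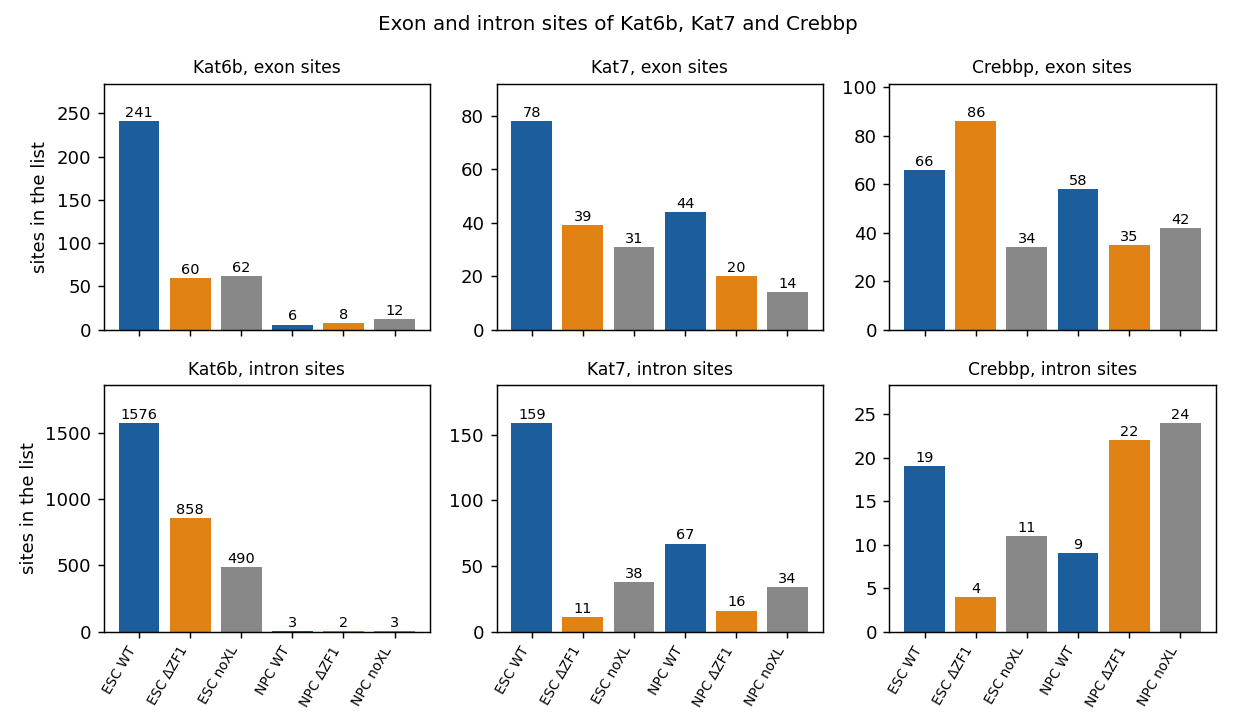
Numbers of exon sites (top) and intron sites (bottom) of Kat6b, Kat7 and Crebbp in the 6 lists, as bars from 0 with the count above each and a scale of its own in each panel. Kat6b exon sites went from 241 in ESC WT to 60 in ESC ΔZF1, and Kat7 intron sites from 159 to 11.

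Positions of the Kat6b sites recurred between the ESC lists less clearly than elsewhere. Of its 918 ESC ΔZF1 sites, 21.9% (19.3 to 24.7) lay within 5 nt of an ESC WT site, against 10.4% after shifting the positions by 500 or 1000 nt. Over all genic ESC ΔZF1 sites the share was 24.2%, against 4.23% after the shifts. By part of the gene, 40.0% (28.6 to 52.6) of the 60 ESC ΔZF1 exon sites and 20.6% (18.1 to 23.5) of the 858 intron sites lay near a WT site. Counted the other way, 12.0% (8.51 to 16.7) of the 241 WT exon sites and 12.4% (10.9 to 14.2) of the 1576 WT intron sites lay near a ΔZF1 site, so that exons and introns did not differ in that direction beyond counting error. Near an ESC noXL site lay 5.23% of the Kat6b ESC WT sites (4.30 to 6.35), against 3.22% after the shifts.

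The base under the sites followed UV. In Kat6b, the share of sites on a uridine in ESC was 65.9% with WT (63.7 to 68.1), 54.5% with ΔZF1 (51.2 to 57.7) and 32.2% without UV (28.5 to 36.3). The corresponding shares over all genic sites were 60.6%, 49.2% and 28.3%, each below the lower end of the Kat6b interval, for noXL by a small margin. Most Kat6b sites were intronic, unlike genic sites as a whole. Its intron sites alone had 65.3% (62.9 to 67.6), 54.1% (50.7 to 57.4) and 33.3% (29.2 to 37.6). All intron sites of these lists had 62.4%, 51.3% and 31.6%, which lay inside the Kat6b interval for ΔZF1 and noXL. A UUU lay inside the 21-nt window of 53.3% of the ESC WT sites of Kat6b, against 45.0% of all genic sites. The other 8 genes together had 53.9% (50.2 to 57.6), 39.5% (34.6 to 44.6) and 31.8% (26.2 to 38.0) uridine in the ESC WT, ΔZF1 and noXL lists. In the same lists of NPC these 8 genes had 60.9% (55.9 to 65.7), 53.9% (47.6 to 60.1) and 23.9% (18.4 to 30.3). The WT and ΔZF1 intervals were apart in ESC and overlapped in NPC. There, Ep300 had 69.5% with WT and 60.3% with ΔZF1, and the share was also lower with ΔZF1 for Kat6a, Crebbp, Kat2a, Kat5 and Kat8, whereas for Kat7 it was 58.6% and 63.9%.

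**Figure D4:**
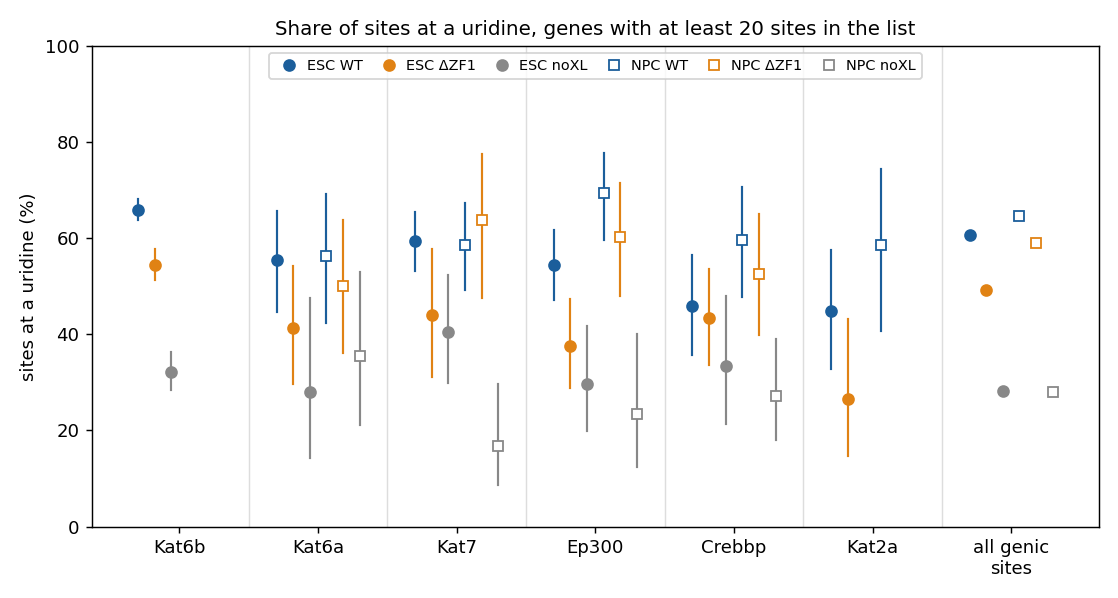
Share of sites at a uridine (vertical axis, percent) with 95% counting intervals for acetyltransferase genes with at least 20 sites in a list, and for all genic sites of the list at the right. In ESC, Kat6b goes from 65.9% in WT to 54.5% in ΔZF1 and 32.2% in noXL.

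Kat6b had few sites in the NPC lists, with or without UV. The counts were 202-fold lower in NPC WT than in ESC WT (106 to 384), 91.8-fold lower in NPC ΔZF1 than in ESC ΔZF1 (49.7 to 170) and 36.8-fold lower in NPC noXL than in ESC noXL (22.2 to 61.1). Scaled to genic sites, the log2 ratios were -6.61 (-7.69 to -5.83), -5.88 (-6.90 to -5.13) and -4.55 (-5.37 to -3.91). The difference was therefore also present between the lists made without UV. Of the 1088 genes with at least 100 ESC WT sites and enough sites to compare, 7 had a lower NPC WT to ESC WT ratio than Kat6b, and of the 33 genes with at least 500, 1 did. Kat6b and these genes were taken by their ESC WT count, which is also the denominator. The ranks are therefore a description and not a test. Within the gene the difference was larger in introns, at -7.41 (-9.39 to -6.27) for WT, than in exons, at -4.35 (-5.70 to -3.42). The NPC counts of Kat6b were too low to compare UV with noXL firmly: NPC WT to NPC noXL was -1.85 (-3.07 to -0.75) from 9 and 15 sites.

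The genes whose pattern over the 6 lists was most like that of Kat6b were Fbxo15, Inpp5d, Tet2, Jam2 and Ak4, by Euclidean distance between log2 site counts per list centred on their mean, with a pseudocount of 1, among 1067 genes with at least 300 sites over all lists. Their distances ran from 0.698 to 1.70, where the median gene lay at 6.997. All 5 had 0 sites in each NPC list, and 157 to 315 in ESC WT. Their NPC values were thus set by the pseudocount, and the order of the distances does not rank measured levels. Fbxo15 held 213, 94 and 54 sites in the ESC WT, ΔZF1 and noXL lists, and Tet2, a 5-methylcytosine dioxygenase active in ESCs, held 222, 118 and 66. Their introns held 31.1% to 76.8% of their ESC WT sites.

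Kat6a, the paralog of Kat6b (chr8:22859535-22943259, plus strand, 83.7 kb), did not share the pattern. It held 83, 58 and 25 sites in ESC WT, ΔZF1 and noXL and 48, 46 and 31 in NPC WT, ΔZF1 and noXL, so that the cell types overlapped. Its exons held 73 of the ESC WT sites and 47 of the NPC WT sites. The scaled log2 ratio of NPC WT to ESC WT was 0.12 (-0.40 to 0.62), far from the Kat6b value. Its introns, with 74.5 kb, held 10, 8 and 3 sites in the ESC lists and 1, 16 and 9 in NPC WT, ΔZF1 and noXL. The intron to exon ratio of Kat6a was higher in NPC ΔZF1 than in NPC WT by 4.65 on the log2 scale (1.66 to 7.64), and over all genic sites it was higher by 0.83. The strongest Kat6a site in ESC WT lay at a uridine of a coding exon, shown here because this position was called in ESC WT and in no other list.
Kat6a coding exon site, chr8:22938009-22938029, plus strand: guaucucucuUgcgaaaaugu

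Kat7 (chr11:95274259-95310246, minus strand), which encodes HBO1, an acetyltransferase of H3 and H4 at origins and promoters, was past the lower limit for ΔZF1 to WT in both cell types. It held 237, 50 and 69 sites in the ESC WT, ΔZF1 and noXL lists and 111, 36 and 48 in the NPC lists. In both cell types the ΔZF1 count was thus the lowest of the 3, below that without UV. Introns held 159, 11 and 38 of these in the ESC lists and 67, 16 and 34 in the NPC lists. Exons held 78, 39 and 31 sites in ESC and 44, 20 and 14 in NPC, in the same order. Scaled, ΔZF1 to WT was -1.24 in ESC (-1.70 to -0.83) and -1.01 in NPC (-1.58 to -0.50) over the gene body. Among sites of at least the median score it was -0.90 and -0.72, inside the limit in both cell types. In introns it was -2.69 (-3.68 to -1.94; -1.60 among sites of at least the median score) and -1.97 (-2.81 to -1.26), and in exons -0.04 (-0.61 to 0.50) and -0.24 (-1.03 to 0.48). Scaled to all genic sites, the NPC values were -1.41 in introns and -0.51 in exons. The log2 change of the intron to exon ratio was -2.85 (-3.89 to -1.81) in ESC and -0.93 (-2.02 to 0.17) in NPC. Over all genic sites it was -0.10 in ESC and 0.83 in NPC. The Kat7 interval in NPC thus includes no change but lies below the value of all genic sites. Of the 14 introns of its longest coding transcript, 13 held sites with WT in ESC and 5 with ΔZF1.

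Kat7 lies on chromosome 11, whose genes were low as a group in both ΔZF1 lists. The median scaled ratio of ΔZF1 to WT over chromosome 11 genes was -0.47 in ESC and -0.61 in NPC, and for their introns -1.03 and -1.09, against 0.11 and -0.05 for introns on other chromosomes. Within chromosome 11, 12.9% of genes had a lower body ratio than Kat7 in ESC and 21.6% in NPC, and 9.38% and 10.1% had a lower intron ratio. Kansl1, a scaffold of the NSL complex on the same chromosome, held 841 sites with WT and 196 with ΔZF1 in ESC, at -1.12 (-1.35 to -0.90). Kat2a, also on chromosome 11, was at 0.22 (-0.40 to 0.81) in ESC and -0.86 (-1.97 to 0.07) in NPC, and 56 of its 58 ESC WT sites were exonic. What part the chromosome played in the Kat7 value was not tested. The highest scoring Kat7 site lay near the gene start, and is shown because it was also called without UV.
Kat7 5′ UTR site, highest score in ESC WT, chr11:95310194-95310214, minus strand: cggcgcuugcGcagaaggcuc
It scored 89.4, 39.8 and 38.3 in the ESC WT, ΔZF1 and noXL lists and 31.8 in NPC WT.

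Kat8 (chr7, plus strand), which encodes the H4K16 acetyltransferase MOF, and Kat5 (chr19, minus strand), which encodes TIP60 of the DNA damage response, carried few sites. Kat8 held 11, 8 and 6 in ESC WT, ΔZF1 and noXL and 17, 11 and 6 in NPC WT, ΔZF1 and noXL. Kat5 held 9, 8 and 3 in ESC and 14, 16 and 3 in NPC. The NPC WT to ESC WT ratio was past the upper limit for both, at 1.48 for each (0.46 to 2.60 for Kat8 and 0.36 to 2.71 for Kat5). Unscaled, their counts were 1.55-fold and 1.56-fold higher in NPC WT, with intervals that included equal counts (0.736 to 3.24 and 0.689 to 3.51).

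Ep300 (chr15:81585351-81652077, plus strand) and Crebbp (chr16:4081328-4213997, minus strand) encode the paralogous coactivators p300 and CBP. Ep300 held 178, 101 and 64 sites in ESC WT, ΔZF1 and noXL and 95, 63 and 34 in NPC WT, ΔZF1 and noXL, a pattern that followed the list sizes. Its scaled ratio of ΔZF1 to WT was 0.17 (-0.19 to 0.51) in ESC and 0.00 (-0.46 to 0.45) in NPC, and that of NPC WT to ESC WT was 0.00 (-0.36 to 0.35). Ep300 introns held 49 sites with WT and 10 with ΔZF1 in ESC, at -1.14 (-2.21 to -0.28), and the log2 change of its intron to exon ratio was -1.79 (-2.84 to -0.73). In NPC, where its introns held 29 and 20 sites, these values were -0.48 (-1.32 to 0.31) and 0.08 (-0.91 to 1.07). Ep300 also held the sole position in any of the 9 genes that was called in all 4 UV lists, and it was called in neither noXL list.
Ep300 coding exon site, common to the 4 UV lists, chr15:81643023-81643043, plus strand: acaggauauuUuaaaacaagc
This uridine scored 9.26 and 12.6 with WT and ΔZF1 in ESC, and 1.59 and 7.61 in NPC.

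Crebbp held 85, 90 and 45 sites in the ESC WT, ΔZF1 and noXL lists, and 67, 57 and 66 in the NPC lists. It was the member with more sites in the smaller ESC ΔZF1 list than in ESC WT, at a scaled log2 ratio of 1.06 (0.63 to 1.49). Without scaling that ratio was 0.082. The excess was exonic, with 66 exon sites for WT and 86 for ΔZF1, at 1.32 (0.87 to 1.79). Its introns held 19, 4 and 11 sites in the ESC lists and 9, 22 and 24 in the NPC lists. In exons the ratio of ΔZF1 to WT was higher in ESC than in NPC by 1.196 (0.43 to 1.96), and in introns the same difference was -2.52 (-4.44 to -0.61). The NPC WT and NPC noXL counts of Crebbp were nearly equal, and the scaled ratio of -1.15 (-1.64 to -0.66) was past the lower limit. Its highest scoring ESC WT site was a G-rich intron site that scored almost as high in NPC without UV (22.5 and 20.2).
Crebbp intron site, chr16:4135529-4135549, minus strand: gggggggaggGgggaauguuu

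Kat2a (chr11:100704746-100712465, minus strand) held 58, 34 and 17 sites in ESC WT, ΔZF1 and noXL and 29, 10 and 8 in NPC WT, ΔZF1 and noXL. Per kb of exon Kat2a had 16.1 sites in ESC WT (exact Poisson interval 12.2 to 20.9), which did not differ beyond counting error from the 14.3 of Kat6b (12.6 to 16.3) and the 14.1 of Kat7 (11.1 to 17.6). Kat2b (chr17:53566861-53672720, plus strand) held 36, 18 and 7 sites in ESC WT, ΔZF1 and noXL and 0, 2 and 1 in NPC WT, ΔZF1 and noXL. No NPC list of Kat2b passed 2 sites, and the ESC WT count was at least 12-fold higher than that of NPC WT, taking 3 counts as the floor of a list at 0, or at least 6.44-fold when scaled to genic sites. Of its ESC WT sites, 34 were exonic and 19 of these lay in the 3′ UTR, unlike the intronic sites of Kat6b. Its highest site is shown for that reason.
Kat2b 3′ UTR site, highest score in ESC WT, chr17:53672073-53672093, plus strand: cgacacuaauUuuuaugaugc

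**Figure D5:**
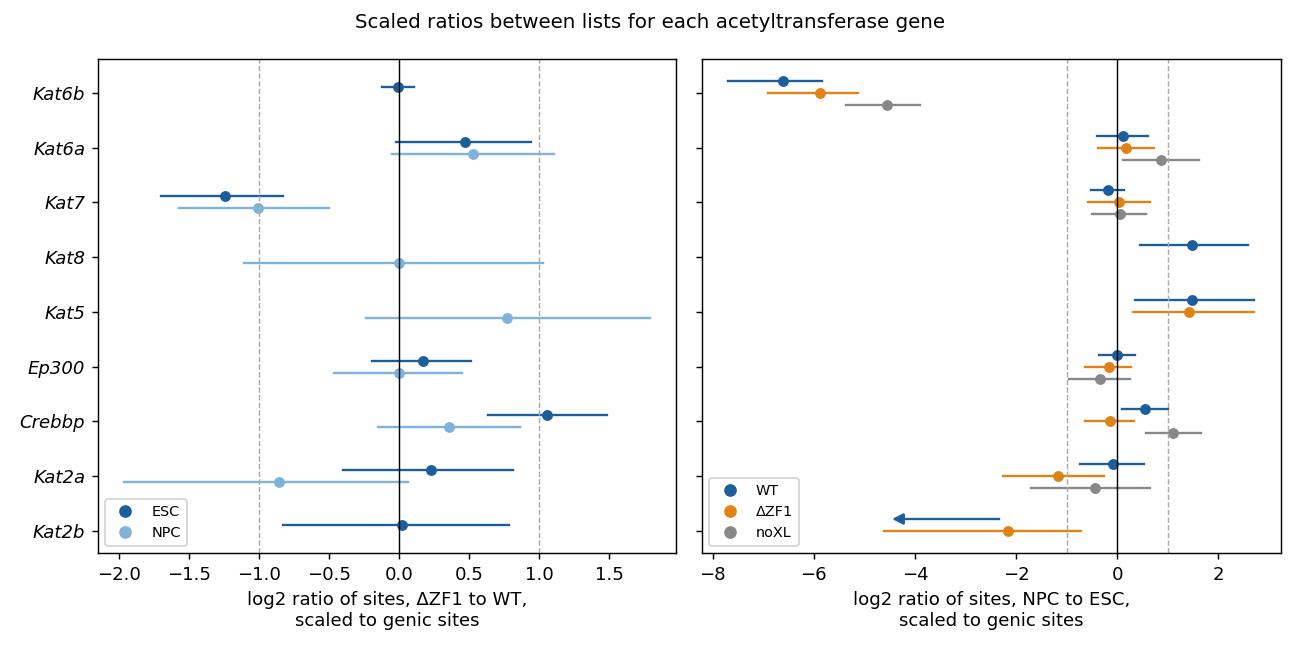
Scaled log2 ratio of sites for each gene with at least 20 sites summed over both lists, ΔZF1 to WT at the left and NPC to ESC at the right. Points are values, lines are 95% counting intervals, dashed lines mark -1 and 1, and the arrowhead is a list at 0. Kat6b lies at -6.61, -5.88 and -4.55 for NPC to ESC, and Kat7 at -1.24 and -1.01 for ΔZF1 to WT.

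The members past a limit were few in each comparison and are given beside the share of all genes past it. For ESC ΔZF1 to WT, 7 members could be compared, 1 was higher (Crebbp) and 1 lower (Kat7), where 6.84% of all genes were higher and 5.45% lower. For NPC ΔZF1 to WT, 0 of 7 were higher and 1 was lower (Kat7), against 5.76% and 7.36% of all genes. For NPC WT to ESC WT, all 9 could be compared, 2 were higher (Kat8 and Kat5) and 2 lower (Kat6b and Kat2b), against 11.5% and 10.4%. The ΔZF1 lists gave 1 higher (Kat5) and 3 lower (Kat6b, Kat2a and Kat2b) of 8 for NPC to ESC, against 10.9% and 14.1%. The noXL lists gave 1 higher (Crebbp) and 1 lower (Kat6b) of 6, against 11.1% and 12.3%. The median member ratio was 0.17 for ESC ΔZF1 to WT and 0.00 for NPC WT to ESC WT. The comparisons with ESC WT share that list and are not independent of each other.

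Few members were past a limit for UV to noXL. In ESC, none of 7 members was past a limit for WT to noXL, where 8.12% of all genes were higher and 6.6% lower (without scaling, 6 of the 7 and 82.8% of all genes were higher), and none of 7 for ΔZF1 to noXL, where 7.86% and 6.56% were. Kat6b had 3.29-fold more sites in ESC WT than in ESC noXL (2.99 to 3.62), and its scaled ratio was 0.21 (0.07 to 0.35). For ESC ΔZF1 to noXL that ratio was 0.20 (0.05 to 0.36). In NPC, 0 members were higher and 2 of 7 lower for WT to noXL (Kat6b and Crebbp), where 10.5% and 6.51% of all genes were. Without scaling, 4 were higher and 0 lower, against 63.5% and 0.441% of all genes. For NPC ΔZF1 to noXL, 0 of 5 were higher and 1 lower (Kat6b), where 7.19% and 8.03% were.

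The partners of these enzymes, 56 genes in 6 lists, showed which other subunits carried sites. Among the MOZ-MORF partners, the scaffold genes Brd1 and Brpf3 led with 137 and 126 sites in ESC WT. Brpf3 held 126, 74 and 48 sites in ESC WT, ΔZF1 and noXL and 6, 5 and 3 in NPC WT, ΔZF1 and noXL. Brpf3 was thus low in every NPC list, as Kat6b was, with scaled ratios of -3.28 (-4.64 to -2.34) for WT, -3.14 (-4.65 to -2.11) for ΔZF1 and -3.05 (-5.04 to -1.84) for noXL. Brd1 held 59, 50 and 40 sites in the NPC lists. For ESC ΔZF1 to WT, 2 of 6 MOZ-MORF partners were higher, namely Ing5 at 1.50 (0.75 to 2.29), from 22 and 32 sites, and Meaf6 at 1.38 (0.59 to 2.20), which was named after its values were seen. Over all genes 6.84% were higher. In NPC the sign for Ing5, a histone reader, was the opposite, at -1.41 (-3.15 to -0.17) from 19 and 4 sites.

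Jade1, a scaffold that directs HBO1 to H4, held 603, 336 and 199 sites in ESC WT, ΔZF1 and noXL and 188, 136 and 97 in NPC WT, ΔZF1 and noXL, and introns held 502 of the 603. Its ΔZF1 to WT ratio was 0.14 (-0.06 to 0.33) in ESC, unlike that of Kat7. Of the MSL and NSL partners, Kansl1 and Ogt held 841 and 277 sites in ESC WT. Msl1, a scaffold of the complex that holds MOF, held 38 sites with WT in ESC and 53 in NPC, at 1.37 (0.78 to 1.98), the highest NPC WT to ESC WT ratio of the partners with at least 50 sites. Of the TIP60 partners, Ep400 and Mbtd1 led with 259 and 225 sites in ESC WT, and Mbtd1, on chromosome 11, had 66 in ESC ΔZF1, at -0.78 (-1.19 to -0.40). Of the SAGA and ATAC partners, Tada2a and Supt20 led with 195 and 171, and Tada2a, also on chromosome 11, had 69 in ESC ΔZF1, at -0.51 (-0.92 to -0.13). Msl1 and Usp22, also on chromosome 11, were at 0.45 (-0.28 to 1.14) and 0.03 (-0.53 to 0.55) for ESC ΔZF1 to WT; Usp22 was named after its values were seen.

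Over all partner lists, 45 genes could be compared for ESC ΔZF1 to WT, 2 were higher (Ing5 and Meaf6) and 2 lower (Kansl1 and Clock), which is 4.44% each against 6.84% and 5.45% of all genes, with a median of 0.15 against 0.04. For NPC ΔZF1 to WT, 0 of 37 were higher and 2 lower (Ing5 and Hat1), against 5.76% and 7.36% of all genes. For NPC WT to ESC WT, 2 of 46 were higher and 6 lower (4.35% and 13.0%, against 11.5% and 10.4% of all genes), with a median of -0.16 against 0.04 over all genes. For NPC ΔZF1 to ESC ΔZF1, 0 of 41 were higher, against 10.9% of all genes, and 10 were lower, which is 24.4% against 14.1%. Among these 10 were 4 of the 6 MOZ-MORF partners, each with 4 to 8 sites in NPC ΔZF1. In the WT lists 1 of 6 MOZ-MORF partners was lower, and in the noXL lists 1 of 4. For the noXL lists, 1 of 35 was higher and 3 were lower, against 11.1% and 12.3% of all genes.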

How the data were processed

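The study's methods state that reads were demultiplexed and trimmed with Flexbar, aligned to mm10 with STAR and deduplicated by molecular identifier with UMI-tools, that the libraries of a group were merged, and that PureCLIP called crosslink sites; versions are not given in the sources used here. The deposited files list 1-nt sites, each with the caller's score (above 0, not scaled to depth). The 6 lists pool 23 libraries, and read depth is unknown.

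Sites were counted per GENCODE M21 gene on its strand; exons were merged over all transcripts. A ratio between lists is log2((a + 1)/(b + 1)) minus the log2 ratio of the lists' genic sites (of their exon or intron sites for exon and intron ratios), for genes with at least 20 sites in a plus b. Nearness means within 5 nt, against shifts of 500 and 1000 nt. Scripts used Python 3.11.15, NumPy 2.4.6, pandas 2.3.3, SciPy 1.17.1 and matplotlib 3.10.9, were tested on simulated data, and gave Wilson intervals. Groups came from sample titles. Members, partner lists and markers were chosen with earlier results of these data known. Named partners are the 2 genes per list with most ESC WT sites and the highest and lowest ratio per comparison among genes with at least 50 sites. Alternatives changed the scaling, pseudocount, score minimum, bases, gene part, background removal, overlapping genes, exon definition and distance. Gm20388, Huwe1, Meaf6 and Usp22 fall outside the naming rule.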

Additional observations from a re-analysis of the deposited data

How the results depend on the processing

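No paired analysis was possible because each site list pools its group's libraries. Of 254 alternative values behind the comparisons, 177 stayed within the counting interval or within 1.5 times the count, 76 moved and 1 reversed. Of 556 for single members, 450 stayed, 105 moved and 1 reversed. Without scaling, Kat6b ESC ΔZF1 to WT was -0.98, Kat7 -2.22 in ESC and -1.60 in NPC, Crebbp 0.082, and Kat6b ESC WT to noXL 1.72. Intron sites alone gave Kat6b 0.17, Kat7 -2.69 and -1.97 and, reversed, Crebbp -0.95 for ΔZF1 to WT. They gave Kat6b 0.44 for ESC WT to noXL, -7.97 for NPC to ESC in ΔZF1 and -6.46 in noXL. Exon sites alone gave Kat6b -1.04, and Kat7 -0.036 and -0.24, for ΔZF1 to WT, and Kat6b -4.35, -2.08 and -1.65 for NPC to ESC in WT, ΔZF1 and noXL. The Kat6b ESC WT count was 724 at scores of at least the median of all lists (3.02), 1198 at uridines, 1722 away from noXL sites and 454 per library. Its exon density was 14.3 per kb, its exon share of 13.3% became 18.6% at high scores and 6.82% over protein-coding transcripts, and its uridine share was 70.1% in exons. Its ESC ΔZF1 sites lay on an ESC WT site at the same nucleotide in 8.28%, within 20 nt in 41.1%, and near it after shifts of 100 nt in 8.50%.

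Numbers of members past a limit rest on 1 to 3 genes and often moved. Without scaling, members higher became 6 and 4 for WT to noXL in ESC and NPC, and 2 for ΔZF1 to noXL in ESC (82.8%, 63.5% and 25.1% of all genes). They became 0 in ESC ΔZF1 to WT (1.52% of all genes). For NPC to ESC they became 0 in WT, ΔZF1 and noXL (5.16%, 6.47% and 5.53%). Members lower became 2 for NPC ΔZF1 to WT and noXL NPC to ESC (28.4% and 30.4% of all genes). They became 0 for NPC WT and ΔZF1 to noXL (0.441% and 1.92%). At high scores no member was past a limit in the 2 ΔZF1 to WT comparisons on the lower side, nor, on the higher side, for NPC to ESC in WT and ΔZF1. Other alternatives gave 0 to 3. Crebbp for NPC WT to noXL reversed without scaling, to 0.021. Alternatives added after seeing the data kept the sign of the Kat6b exon and Kat7 intron ratios of ΔZF1 to WT (scaled to all genic sites, -1.01 for Kat6b exons and -2.76 and -1.41 for Kat7 introns in ESC and NPC), while the Kat6b intron ratio became -0.053 at high scores.

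The limits are 1 pooled list per group, unknown read depth and RNA level, 3 libraries in NPC WT against 4 elsewhere, and no noXL list for ΔZF1.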

Other observations

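Acetyltransferases outside the 9 genes also differed in where their sites came from. Hat1, the cytoplasmic histone acetyltransferase of new H4, held 347, 165 and 123 sites in ESC WT, ΔZF1 and noXL and 102, 30 and 48 in NPC WT, ΔZF1 and noXL, and introns held 300 of the 347. Its ratio of ΔZF1 to WT was -0.09 (-0.36 to 0.17) in ESC and -1.15 (-1.76 to -0.60) in NPC, and no test set the cell types against each other. Clock, a circadian transcription factor with reported acetyltransferase activity, held 31, 6 and 29 sites in the ESC WT, ΔZF1 and noXL lists. Its scaled ratio of ESC WT to noXL was -1.42 (-2.14 to -0.69), the lowest of the partner genes with at least 50 sites. Its ratio of ESC ΔZF1 to WT was -1.21 (-2.61 to -0.17).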
